A study of Arabidopsis thaliana with 4 samples.

Results

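The 9 loci described here are PYR1, PYL1, PYL2, PYL4, PYL5, PYL6, PYL7, PYL8 and PYL9, out of 32678 loci in the count table. All belong to the abscisic acid receptor family of Arabidopsis thaliana. They were set by locus identifier, with earlier results of these data known, and 5 other family members are described apart. Of the 9, 8 have 1 transcript model in the table and 1, PYL8, has several. RNA was sequenced from 4 samples of 1 group, the wild-type accession Col-0, untreated and 31 days old, with no mutant, transgene or second condition. Each sample was the centre of a rosette, 1.5 to 2 cm across, from plants whose sown seeds had a cold period at 4 °C and which then grew at 22 °C in days with 16 h of light. The samples are called core 1 to core 4. With 1 group, the design asks which receptor genes this tissue expresses and how far its replicates differ. The labels do not say that the cores came from separate plants, so the spread and every p-value describe these 4 samples only and may be technical.

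Abscisic acid is the plant hormone of drought, seed dormancy and growth restraint. A receptor of the PYR/PYL family closes a gate loop and a latch loop over the bound hormone, and the closed surface then docks on a clade A protein phosphatase 2C and blocks it. The blocked phosphatase releases SnRK2 kinases, which phosphorylate bZIP transcription factors and ion channels. The family falls into subfamily III (here PYR1, PYL1 and PYL2), whose members form homodimers without hormone, and the mostly monomeric subfamilies II (PYL4, PYL5 and PYL6) and I (PYL7, PYL8 and PYL9).

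The gate loop shows how alike and how distinct the members are. Its residues serine, glycine, leucine, proline and alanine were found once in the reference coding sequence of each of the 9 members, in 8 different codon spellings. The stretches below, 5′ to 3′ on the coding strand in the TAIR10.1 reference, are shown because the DNA differences are what lets reads be given to 1 member, and capitals mark the 5 gate codons. Only PYR1 and PYL1 share a spelling.
PYR1, chr4:9929038-9929064, plus strand: gtcatcAGTGGATTACCGGCGaacaca
PYL1, chr5:18984375-18984401, minus strand: gtgataAGTGGATTACCGGCGaatacg
PYL2, chr2:11095120-11095146, minus strand: gtaatcTCCGGCCTCCCAGCCtcaacc
PYL4, chr2:16050563-16050589, plus strand: gtcgtcTCTGGTCTCCCCGCCgctagc
PYL5, chr5:1609704-1609730, plus strand: gtggtcTCTGGACTCCCGGCGgtctcg
PYL6, chr2:16845459-16845485, minus strand: gtcgtcTCTGGTCTCCCCGCGgcgttt
PYL7, chr4:447662-447688, plus strand: gtcaaaTCTGGTCTTCCAGCAaccacc
PYL8, chr5:21561553-21561579, plus strand: gtgaaaTCTGGACTACCAGCAactaga
PYL9, chr1:142532-142558, plus strand: gttaaaTCTGGTCTTCCTGCAacaaca

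Aligned coding sequences of members of the same subfamily were 63.2 to 81.4% identical, and those of different subfamilies 57.8 to 66.8%, over 9 and 27 pairs. PYL7 and PYL9 were the most alike (81.4%), and their longest identical stretch was 32 bases, the longest of all 36 pairs. PYR1 and PYL1 were 75.2% identical, with a longest identical stretch of 20 bases. Untranslated parts were not compared. The exons of PYR1, PYL1, PYL2, PYL4, PYL5 and PYL6 form 1 block in the reference, while PYL7 and PYL9 have 3 exon blocks and PYL8 has 2, and an intron splits the codons at or beside the latch in each of these subfamily I members.

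PYL4 was the most abundant measured receptor transcript of the rosette core, and PYR1, PYL7, PYL9 and PYL1 formed a middle range. PYL5, PYL6 and PYL2 were scarce, and PYL8 could not be measured. Of the 8 measured receptors, 6 had at least 1 CPM in each core, against 61.7% of nuclear protein-coding genes with 1 model. None of the 5 other family members had that level, so this count depends on which members were taken. Levels below are CPM (counts scaled to a common library size of 1e6) per kb of exon, so that genes of different length can be set side by side. The 8 measured receptors together had 216, 209, 239 and 218 CPM per kb in cores 1 to 4, a mean of 221 ± 13.2 (SD, n = 4). In whole tissue, fewer cells of a type and less RNA per cell cannot be told apart.

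**Figure D1:**
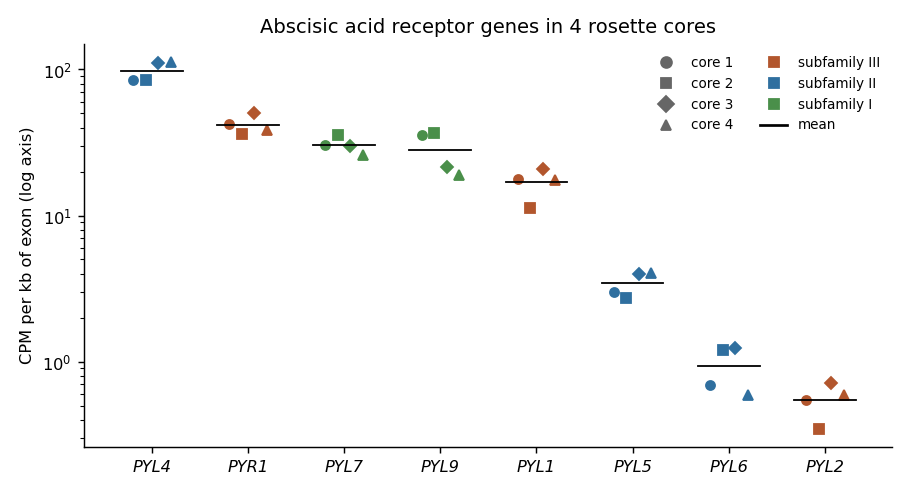
Level of each measured receptor gene in CPM per kb of exon on a log axis, with 1 symbol per core, colours for the subfamilies and a black line at the mean of 4 cores. PYL4 stands above all others in each core (84.8 to 112 CPM per kb), 4 genes lie between 11.3 and 50.7, and PYL5, PYL6 and PYL2 lie between 0.348 and 4.04.

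Subfamily III holds the founding receptor PYR1, found through resistance to the synthetic agonist pyrabactin. PYR1 (AT4G17870, TAIR10.1, chromosome 4, 9928587 to 9929875, plus strand) had 389, 313, 427 and 265 counts in cores 1 to 4, which is 42.2, 36.2, 50.7 and 38.7 CPM per kb. Core 3 was highest and core 2 lowest, and the mean of 41.9 ± 6.35 (SD, n = 4) put PYR1 above 85.3% of nuclear protein-coding genes with 1 model. Its closest relative PYL1 (AT5G46790, chromosome 5, 18983540 to 18984923, minus strand) had 177, 105, 188 and 128 counts, or 17.9, 11.3, 20.8 and 17.4 CPM per kb. Core 2 was again the lowest for PYL1 and core 3 the highest, around a mean of 16.8 ± 3.99 (SD, n = 4). PYL2, which can carry the abscisic acid response of guard cells, was near the limit of counting. PYL2 (AT2G26040, chromosome 2, 11094258 to 11095542, minus strand) had 5, 3, 6 and 4 counts, 18 in all with a 95% Poisson interval of 10.7 to 28.4 that covers counting error only. Its level was 0.548 ± 0.152 CPM per kb (SD, n = 4).

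Subfamily II held both the most abundant receptor and some of the scarcest. PYL4, a receptor whose transcript is known to respond to jasmonate, lies at AT2G38310 (chromosome 2, 16049918 to 16051356, plus strand). It had 877, 820, 1037 and 855 counts, or 85.2, 84.8, 110.3 and 112 CPM per kb in cores 1 to 4. Cores 3 and 4 were thus higher than cores 1 and 2, and the mean of 98.1 ± 15.1 (SD, n = 4) lay above 93.8% of nuclear protein-coding genes. PYL5 (AT5G05440, chromosome 5, 1608988 to 1610527, plus strand) had 33, 28, 40 and 33 counts and a level of 3.00, 2.71, 3.98 and 4.04 CPM per kb. Its values in cores 3 and 4 were above the other cores, but unlike PYL4 it was not called beyond counting noise (chi-square adjusted p = 0.319). PYL6 (AT2G40330, chromosome 2, 16844588 to 16846194, minus strand), known to bind the jasmonate regulator MYC2, had 8, 13, 13 and 5 counts. Its level was 0.931 ± 0.338 CPM per kb (SD, n = 4), with higher values in cores 2 and 3 than in cores 1 and 4. These were 39 counts in all, with a 95% Poisson interval of 27.7 to 53.3. They were too few for the test of variation between cores, so this difference was not tested.

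Subfamily I could be measured in part. PYL9, known to promote leaf senescence in drought, lies at AT1G01360 (chromosome 1, 141870 to 143261, plus strand, named RCAR1 in the reference). It had 300, 290, 165 and 119 counts, which gave 35.6, 36.6, 21.4 and 19.0 CPM per kb. Cores 1 and 2 were high and cores 3 and 4 low, the reverse of PYL4, and the coefficient of variation of 32.8% was the widest of the 6 receptors with enough counts to be tested. PYL7 (AT4G01026, chromosome 4, 446978 to 448511, plus strand) had 270, 297, 244 and 172 counts and 30.4, 35.7, 30.1 and 26.1 CPM per kb. Its coefficient of variation of 12.8% was the narrowest. The exons of PYL7 lie under exons of opposite-strand genes along 49.7% of their length, 46.0% of it under AT4G01030, which had 200, 205, 180 and 145 counts. The library kit marked strand, but whether the counting used it is not given in the sources used here, and the part of AT4G01030 in the PYL7 counts was not tested.

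PYL8, known for root growth responses to abscisic acid, has 2 transcript models in the table and had 0 counts for both in each core. PYL8 (AT5G53160, chromosome 5, 21560601 to 21562709, plus strand, named RCAR3 in the reference) shares this with other loci of several models, whose rows hold few counts, and its level is therefore unknown here. The 0 counts are no measure of an absent transcript.

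Neighbours in the order of levels did not all differ beyond their spread. The log2 ratio of levels was taken within each core, and with 4 cores the exact sign-flip permutation test, two-sided, cannot give less than p = 0.125. The order was set by the mean levels in these same 4 cores, so the direction of each mean ratio was largely fixed in advance. The p-values and counts of cores for neighbours describe the ratios and are no separate evidence for the order. PYL4 exceeded PYR1 by 1.22 ± 0.22 on the log2 scale (SD, n = 4; exact p = 0.125), a 2.33-fold difference in the same direction in 4 of 4 cores. PYR1 exceeded PYL7 by 0.45 ± 0.31 (exact p = 0.125, 4 of 4 cores), although the difference was 0.02 in core 2. PYL7 and PYL9 did not differ beyond their spread, with a log2 ratio of 0.17 ± 0.36 (exact p = 0.5) and PYL7 higher in 2 of 4 cores.

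PYL9 and PYL1 overlapped in range. Their log2 ratio was 0.99 in core 1 and 1.69 in core 2 but 0.04 in core 3 and 0.13 in core 4, a mean of 0.71 ± 0.78 (exact p = 0.125). Below them came a step, since PYL1 exceeded PYL5 by 2.27 ± 0.24 (exact p = 0.125, 4 of 4 cores) and PYL5 exceeded PYL6 by 1.87 ± 0.65 (exact p = 0.125, 4 of 4 cores). PYL6 and PYL2 overlapped, with a log2 ratio of 0.66 ± 0.72 (exact p = 0.250, 3 of 4 cores). Whether reads were shared between similar copies was not tested.

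By subfamily, the measured members of subfamily II had 88.9, 88.8, 115.6 and 116.6 CPM per kb, those of III 60.6, 47.8, 72.2 and 56.7, and those of I, without PYL8, 66.0, 72.3, 51.6 and 45.1. Subfamily II was higher than III in 4 of 4 cores, with a log2 ratio of III over II of -0.79 ± 0.22 (SD, n = 4; exact p = 0.125), and PYL4 made up nearly all of it. III and I could not be ordered, with a log2 ratio of 0.03 ± 0.49 (exact p = 1) that was below 0 in cores 1 and 2 and above 0 in cores 3 and 4. It turned to -0.13 without core 3 and to -0.08 without core 4. II over I was 0.81 ± 0.53 (exact p = 0.125, 4 of 4 cores). The missing PYL8 would lower both II over I and III over I by an unknown amount.

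The make-up of the receptor pool differed between cores. PYL4 held 39.5, 40.6, 46.1 and 51.2% of the summed receptor level in cores 1 to 4, a mean of 44.4 ± 5.40% (SD, n = 4). PYL9 held 16.5, 17.5, 8.95 and 8.70% in the same cores, so its share in cores 3 and 4 was lower while that of PYL4 was higher. PYR1 held 19.0 ± 1.79% and PYL7 13.9 ± 2.28%. Shares of a fixed whole are not independent of each other, and PYL8 is not in the whole.

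**Figure D2:**
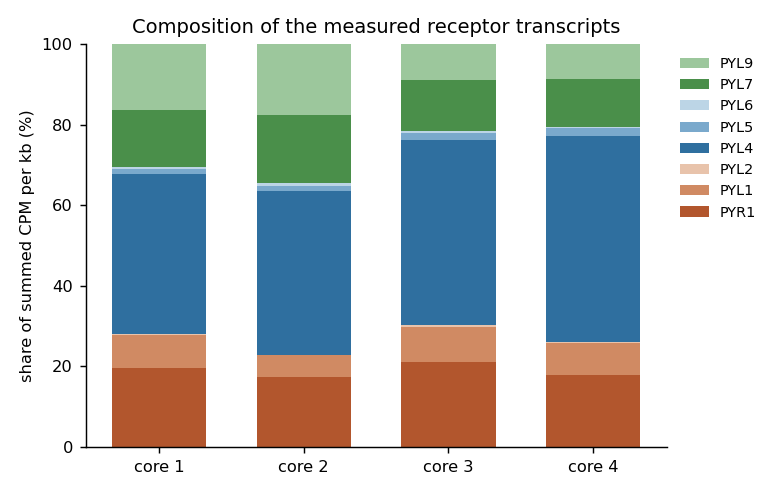
Share of each of the 8 measured receptor genes in their summed CPM per kb, in percent, with 1 bar per core. The PYL4 segment is 39.5% in core 1 and 51.2% in core 4, and the PYL9 segment is 16.5 and 17.5% in cores 1 and 2 against 8.95 and 8.70% in cores 3 and 4.

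A total of 5 receptors, PYR1, PYL1, PYL4, PYL7 and PYL9, varied between cores by more than counting noise, and PYL5 was the only one of the 6 that passed the count filter and was not called (chi-square test of Poisson heterogeneity, Benjamini-Hochberg over 12771 nuclear genes). The background was 64.2% of all genes tested, and 5 of 6 receptors is not read here as a feature of the family. The filter asks for about 10 counts in each core, which PYL2 and PYL6 did not reach. Between the highest and the lowest core, PYL9 changed 1.93-fold (adjusted p = 2.49e-13, chi-square), PYL1 1.84-fold (adjusted p = 2.56e-05), PYR1 1.40-fold (adjusted p = 7e-05), PYL7 1.36-fold (adjusted p = 0.0189) and PYL4 1.32-fold (adjusted p = 4.41e-13). The adjusted p of PYL5 was 0.319 at 1.49-fold, with 28 to 40 counts a core. The median gene tested changed 1.45-fold.

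Single cores carried some of these calls. Without core 2 the number of called receptors fell to 3, as PYL1 was 1.19-fold (adjusted p = 0.287, chi-square) and PYL7 1.17-fold (adjusted p = 0.323). PYR1 lost its call without core 3 (1.17-fold, adjusted p = 0.185, chi-square) and PYL7 also without core 4 (1.18-fold, adjusted p = 0.117). The calls of PYL4 and PYL9 held without any 1 of the 4 cores.

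Set against genes of the same level, no receptor was called. The quasi-likelihood fit of edgeR called 0 of 12771 genes after Benjamini-Hochberg adjustment (0%), with 677 genes (5.30%) at an unadjusted p under 0.05, and DESeq2 marked 67 genes, none of them a receptor, as dispersed beyond its trend. As edgeR called no gene of any kind, its lack of calls cannot set receptors apart from other genes. PYL9 came closest, with a quasi-dispersion, a measure on the variance scale, 4.6 times the trend for genes of its level (edgeR quasi-likelihood unadjusted p = 0.0758, adjusted p = 0.976). For PYL1 this ratio was 2.29 (edgeR quasi-likelihood adjusted p = 0.990), and it was 1.14 for PYL4, 1.06 for PYR1, 0.703 for PYL7 and 0.621 for PYL5.

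The remaining family members, listed for completeness, were at the limit of counting. PYL3 and PYL12 had no counts in any core, which allows up to 3 counts a library, or 0.419 CPM in core 1 and 0.565 CPM in core 4. PYL10 had 4 counts and PYL13 2 counts, all in core 1. PYL11, whose known sites of expression include seeds, had 4, 4, 3 and 3 counts. The codons of the same gate residues were found in PYL3, PYL10 and PYL11 but not in PYL12 and PYL13.

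The letters ACGTG, the core of the abscisic acid response element, were searched on both strands in the 250 bases before the annotated start of each gene. They were present for 2 of the 9 members, PYR1 with 1 match and PYL7 with 3, of which 1 pair overlaps in the palindrome CACGTG. Of 26711 protein-coding genes with such a window, 23.1% had at least 1 match. A match of these letters is no evidence of binding, and the count of members is near that share.

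Around the receptors, 59 genes of 8 pathway lists were looked up, from hormone synthesis, breakdown and transport to signalling and responsive genes. Of the 59, 35 have 1 model and 24 several, among the latter the phosphatase genes ABI2 and HAB1 and the kinase gene OST1. Of the 23 that passed the count filter, 19 varied beyond counting noise, where 64.2% of all genes tested did, and 0 beyond genes of the same level after adjustment (edgeR). An unadjusted edgeR p under 0.05 was found for 7 of the 23, against 5.30% of all genes tested. The lists were chosen with earlier results of these data known. The highest core of the 23 genes was core 2 for 14, core 3 for 4, core 1 for 3 and core 4 for 2, against 28.4% of all genes tested with their highest value in core 2.

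**Figure D3:**
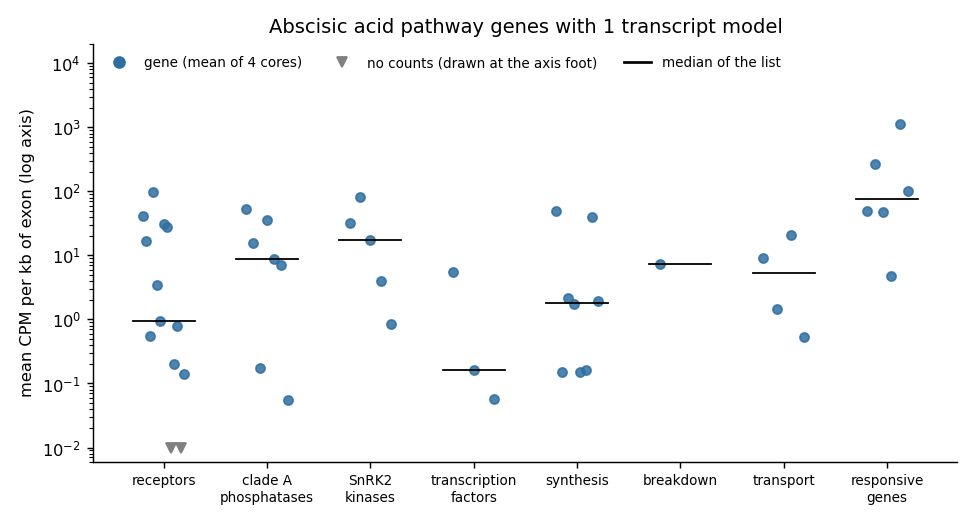
Mean level of each gene with 1 transcript model in CPM per kb of exon on a log axis, by role in the abscisic acid pathway, with a line at the median of each list and grey triangles for genes with no counts. PYL4 tops the 13 receptors at 98.1 CPM per kb, ABI1 tops the phosphatases at 52.5 and SNRK2.1 the kinases at 81.1.

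Clade A phosphatases, the direct partners of the receptors, had 7 genes with 1 model and a median of 8.64 CPM per kb. Over all nuclear protein-coding genes with 1 model the median was 4.99, and over the genes that passed the filter it was 16.9. The list median includes AHG1 and HAI3, which did not pass. ABI1 was the highest at 52.5 ± 5.71 CPM per kb (SD, n = 4), PP2CA followed with 36.1 ± 6.92, and AHG1 (0.173 ± 0.119) and HAI3 (0.0549 ± 0.0647) were at the floor. All 5 that passed the filter varied beyond counting noise, and this count and those of the following lists stand against the same 64.2%. HAI1 and HAI2, phosphatase genes induced by abscisic acid, spread the most, with 19.2, 30.1, 9.03 and 13.8 CPM for HAI1 and 13.1, 25.2, 5.67 and 9.23 CPM for HAI2. Both were highest in core 2 and lowest in core 3 (edgeR adjusted p = 0.917 and 0.870). The 8 measured receptors together had 1.80, 1.41, 2.3 and 2.03 times the summed level per kb of the 7 phosphatases in cores 1 to 4. As PYL8, ABI2 and HAB1 are missing from both sums, this ratio describes the measured genes only.

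SnRK2 kinases, 5 with 1 model, had a median of 17.1 CPM per kb, and 4 of 4 past the filter varied beyond counting noise. SNRK2.1, which is not activated by abscisic acid, was the highest at 81.1 ± 8.88 CPM per kb (SD, n = 4), and SNRK2.3, one of the main kinases of the pathway, had 32.1 ± 4.55. SNRK2.7 (3.98 ± 1.72) and SNRK2.9 (0.837 ± 0.631) were the lowest. Their summed level stayed between 130.4 and 142 CPM per kb over the 4 cores.

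Among transcription factors 3 of 7 have 1 model. ABI5, a bZIP factor of seeds and young seedlings, had 17.6, 18.3, 3.98 and 6.22 CPM, high in cores 1 and 2 and low in cores 3 and 4 (4.6-fold, edgeR adjusted p = 0.852). ABI3 (0.164 ± 0.0918 CPM per kb) and ABI4 (0.0572 ± 0.114) were at the floor. Of 8 measured synthesis genes, ABA4 (49.9 ± 6.60 CPM per kb) and ABA2 (40.0 ± 2.81) were the highest and NCED2 (0.150 ± 0.154) and NCED6 (0.152 ± 0.104) the lowest, and 1 of 4 past the filter, ABA4, varied beyond counting noise. Exons on the opposite strand cover 39.7% of the exons of ABA2. NCED3, the stress-induced step of synthesis, missed the filter with 45, 90, 8 and 13 counts. CYP707A4, the only measured gene of hormone breakdown, had 14.7, 19.2, 3.06 and 15.3 CPM.

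Hormone transporters were led by NPF4.6 (20.6 ± 3.20 CPM per kb) and the exporter gene ABCG25 (9.06 ± 4.32), with ABCG40 (1.45 ± 0.224) and DTX50 (0.535 ± 0.221) lowest, and 2 of 3 past the filter varied beyond counting noise. ABCG25 had 25.6, 31.7, 10.7 and 14.1 CPM. The 1 measured C2-domain partner of the receptors, CAR4, had 0.136 ± 0.158 CPM per kb.

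The median over the 6 measured responsive genes was 74.7 CPM per kb, and 5 of 5 past the filter varied beyond counting noise and were highest in core 2. KIN2 had 1354, 1367, 316 and 372 CPM (edgeR adjusted p = 0.741), and HB12, a homeobox gene induced by drought, had 66.7, 81.1, 24.2 and 30.9 CPM (edgeR adjusted p = 0.779). RD22 was the second highest per kb (269.5 ± 46.4) and KIN1 the lowest (4.76 ± 3.16), followed by HB12 (48.1 ± 26.1). PYL9 shares with KIN2, HB12 and ABI5 the high values in cores 1 and 2, at a smaller size. RD22, of the same list as KIN2 and HB12, had 400, 561, 503 and 398 CPM, with core 3 above core 1, and CYP707A4 had core 4 above core 1. A link of PYL9 to these genes was not tested. PYR1, PYL1 and PYL5 were lowest in core 2, as was PYL4 by a small margin.

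**Figure D4:**
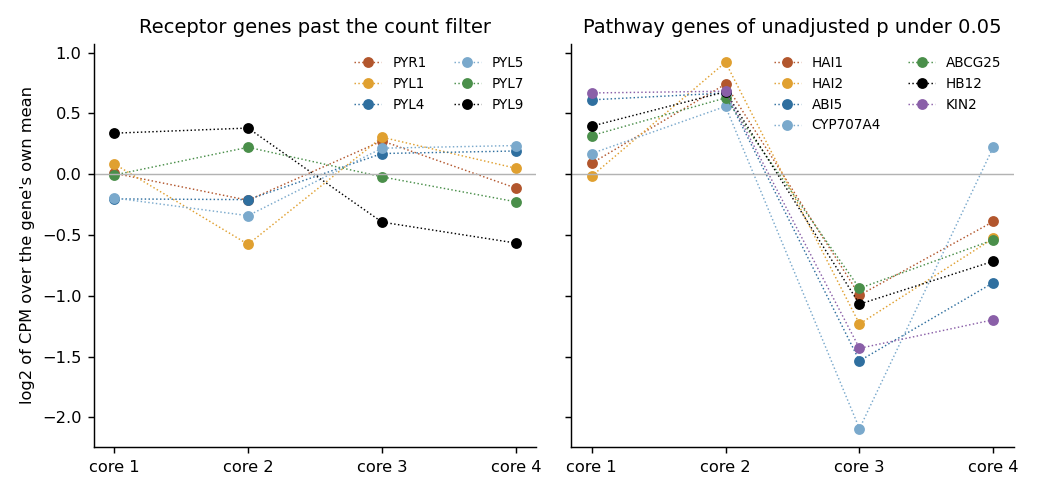
Level of each gene in each core as log2 of CPM over the gene's own mean of 4 cores, for the 6 receptor genes past the count filter (left) and the 7 pathway genes with an unadjusted edgeR p under 0.05 (right). Dotted lines only join the points of 1 gene, as cores have no order, and the receptors stay within a 1.93-fold range while KIN2 has 1367 CPM in core 2 and 316 CPM in core 3.

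By the rule of the smallest root mean square difference of centred log2 CPM over the 4 cores, the genes most like PYL4 among 8080 genes of at least 20 CPM were GATA17 (0.00826), RLP4 (0.0120) and CI51 (0.0147). As 587 genes lay within 0.1 of PYL4, 4 cores set few genes apart from it. The genes most like PYL9 were AT1G78450 (0.0187), AT5G37540 (0.0194) and AT5G16110 (0.0234), and 42 genes lay within 0.1.

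The libraries held 5639486 to 7692788 counts, and 1 count was worth 0.140 to 0.188 CPM. Leaf markers and the meristem marker STM were present, and the meristem marker WUS and the root and seed markers were at or near 0. The leaf genes LHCB1.3 and PSBO1 summed to 17369 to 25265 CPM per kb, the meristem gene STM had 95.7 to 317 CPM, and WUS had 1 count. The root genes EXPA7, RHD6 and COBL9 summed to at most 0.175 CPM per kb, and the seed genes OLEO1, OLEO2 and SESA4 to at most 2.95, with OLEO2 and SESA4 at 0. The guard cell genes KAT1, FAMA and SLAC1, 3 of 4 listed, summed to 16.8, 11.6, 17.7 and 15.9 CPM per kb in cores 1 to 4, and the phloem genes SUC2 and SEOR1, 2 of 3 listed, to 68.0, 59.7, 90.0 and 62.5. Both sums were lowest in core 2 and highest in core 3, as PYR1 and PYL1 were, but of the single genes SEOR1 alone had both. KAT1 was highest in core 3 and lowest in core 1, FAMA was highest in core 1 and SLAC1 in core 4, and SUC2 was lowest in core 4. Exons on the opposite strand cover 43.0% of the exons of SLAC1. STM was highest in core 2 and lowest in core 3. The part of cell make-up in the receptor values was not tested. RBCS1A, CLV3, MYB60 and APL have several models and no usable value.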

How the data were processed

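Total RNA of 4 rosette cores was depleted of ribosomal RNA, made into strand-marking Ion Torrent libraries and sequenced on an Ion Proton with Torrent Suite 4.0.2, per the labels' protocols. HTSeq and TAIR10 are named in the submitters' processing notes; for the aligner and counting settings, none is given in the sources used here. Values were deposited as raw counts per transcript model, 40745 rows for 32678 loci, with no normalization by the authors. Models were summed per locus, and because rows of loci with several models held only 1.63 to 1.73% of the counts, levels come from the 26516 nuclear loci with 1 model. All 4 sample columns were used.

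CPM were computed here on those counts after TMM scaling (edgeR 4.0.16, R 4.3.3), and divided by exon length from the TAIR10.1 annotation, which may differ from the TAIR10 models counted. Coding length, for which the annotation was used as no protein table was at hand, was an alternative. Genes passing edgeR's filter (minimum count 10, 12771 genes) entered a chi-square test of Poisson heterogeneity and a one-sided test of the quasi-dispersion against its trend in edgeR's quasi-likelihood fit, with Benjamini-Hochberg adjustment and 0.05 as the limit. Log2 ratios used a prior count of 0.5. DESeq2 1.42.0 gave size factors and dispersions as alternatives. Sequences were read from TAIR10.1, whose nuclear chromosomes stand for TAIR10, with Biopython 1.88. The tests were checked on simulated data.

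The members, gene lists and tests were chosen with earlier results of these data known. Named genes are all members, the 2 highest and 2 lowest of each list per kb and the tissue markers. HAI1, HAI2 and the other genes of unadjusted p under 0.05 outside that rule were chosen after their values were seen. So was NCED3, which missed the filter and has no p-value. Intervals and floors cover counting error only.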

Additional observations from a re-analysis of the deposited data

How the results depend on the processing

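The summed receptor level of 221 CPM per kb moved to 486 with coding in place of exon length, by construction, and stayed at 209 to 224 under the other alternatives. The 5 receptors varying beyond counting noise ranged from 3 to 5 with 1 core left out and were 5 under other scaling, without the count filter and with models summed. Of 48 calls of single receptors under alternatives, 44 were as reported. The count of all genes called was 6468 to 8510. No receptor was called by edgeR under any setting run, nor by DESeq2's dispersion trend, although edgeR called 457 genes without the count filter. An unadjusted edgeR p under 0.05 was found for 1 receptor without core 3 and for 1 without the count filter. The log2 ratio of subfamily III over I of 0.03 ranged from -0.13 to 0.23 with 1 core left out, and was -0.13 without core 3 and -0.08 without core 4, so its sign is not settled. III over II stayed at -0.92 to -0.71 and II over I at 0.63 to 1.07. Of 49 neighbour ratios under alternatives, none changed sign, and 1 moved by more than its SD (PYL1 over PYL5, 1.99 with coding length). The order of neighbours came from these same cores, so an unchanged sign is no separate evidence for it. Leaving out the TMM factor or using DESeq2 size factors moved no library by more than 0.05 on the log2 scale from its own main scaling. Ratios between cores could move more, as PYL9 went from 1.93-fold to 2.00-fold without the TMM factor. The library total over all loci gave the 209 CPM per kb above. No paired analysis between groups was possible because there is 1 group, and ratios of genes were taken within cores. Depth limits PYL2, PYL6 and the members at 0 to 4 counts a core, and PYL8 cannot be measured from these counts.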
